A study of Mus musculus with 10 samples.

Results

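The blood-testis barrier is described here through 9 genes of its tight, gap and adherens junctions, Cldn3, Cldn5, Cldn11, Ocln, Tjp1, F11r, Jam2, Gja1 and Cdh2, in mouse testis. They were chosen by name, are 9 of the 25239 genes in the deposited count table, and all 9 had enough reads to be tested. RNA-seq had been done on C57BL/6 testis at 2 ages, P4 (4 days after birth) and P7 (7 days after birth). At each stage there were 2 libraries of wild-type mice (WT) and 3 libraries labelled cKO, with the genotype Lsm7-flfl-stra8. That name points to floxed Lsm7 alleles and to Stra8, a gene of differentiating spermatogonia, and the labels describe no Cre driver further. The protein LSM7 is part of the LSm rings that act in splicing and in messenger RNA decay. The series design contrasts WT with Lsm7-null germ cells. The samples carry germ cell as their cell type, but RNA was extracted from testis with no sorting step described, so the junction genes of somatic cells were read along with those of germ cells.

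The barrier forms between neighbouring Sertoli cells, the somatic cells that surround and nourish the germ cells, and it closes later in postnatal life than the stages sampled here. Claudins and occludin are the membrane proteins that seal tight junctions, JAM proteins are adhesion molecules at the same sites, and ZO-1 ties them to actin. Connexin 43 forms the gap junction channels that join Sertoli cells, and N-cadherin holds cells together at the adherens junctions beside them. Claudin 11 is needed for the barrier in the mouse testis, and its loss makes males infertile.

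Depth ran from 28.8 to 41.8 M reads per library. The P7 WT libraries differed by less than the limit of 2 set for the sampling noise of paired reads (their chi-square per degree of freedom was 1.98, where the other same-group pairs gave 23.5 to 122.9) and were summed and counted as 1 sample. The 9 samples were thus 2 WT and 3 labelled cKO at P4, and 1 WT and 3 labelled cKO at P7, and the spread of P7 WT, having 1 sample, was taken from the other groups. Lsm7 itself was read at 36.2 and 25.7 CPM (counts per 1 M reads) in P4 WT and at 44.9, 50.5 and 43.6 CPM in the P4 samples labelled cKO. At P7, WT gave 33.3 CPM and the samples labelled cKO gave 45.2, 26.0 and 20.3 CPM. Lsm7 passed the test at neither stage (log2 difference 0.58, adjusted p = 0.215 at P4; -0.13, adjusted p = 0.835 at P7; edgeR), so the counts do not show the genotype and every genotype direction below rests on the labels. Since RNA came from testis with no sorting step described, a loss limited to germ cells could go unseen in these Lsm7 counts. Nothing in the labels ties libraries to separate animals, so the p-values rest on a spread between libraries that may be technical.

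Cell type markers were read in the same samples. The summed level of 18 Sertoli cell markers was 4865 and 6546 CPM in P4 WT, 7668 to 8564 CPM in the P4 samples labelled cKO, 8070 CPM in P7 WT and 6959 to 7406 CPM in the P7 samples labelled cKO. Clu gave 21.3% of that sum and Ctsl 17.9%. All 18 markers had reads in every sample. The summed level of 10 germ cell markers was lower, from 250.6 to 429.9 CPM at P4 and from 1173 to 2022 CPM at P7. The 10 endothelial markers summed to 386.9 to 490.2 CPM at P4 and to 196.7 to 267.9 CPM at P7. In bulk testis, fewer cells of a type and less RNA per cell cannot be told apart.

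The promoters of 3 members are shown because these genes carry the main contrasts below: Cldn11 is the gene with the steepest course from P4 to P7, Cldn5 takes the opposite course, and Tjp1 is lower in the P7 samples labelled cKO. Each is the run of 250 bases just before the RefSeq start (GRCm38.p6), 5′ to 3′ on the gene's strand: chr3:31149670-31149919 on the plus strand for Cldn11, chr16:18776597-18776846 on the plus strand for Cldn5 and chr7:65371245-65371494 on the minus strand for Tjp1. Capitals mark CCAAT and GGGCGG on either strand, so that ATTGG and CCGCCC are their reverse complements.
Cldn11: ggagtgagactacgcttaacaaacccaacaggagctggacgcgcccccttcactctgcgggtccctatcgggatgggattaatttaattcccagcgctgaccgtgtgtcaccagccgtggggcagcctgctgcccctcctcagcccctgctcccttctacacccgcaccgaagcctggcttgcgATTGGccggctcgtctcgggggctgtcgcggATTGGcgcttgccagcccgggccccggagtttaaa
Cldn5: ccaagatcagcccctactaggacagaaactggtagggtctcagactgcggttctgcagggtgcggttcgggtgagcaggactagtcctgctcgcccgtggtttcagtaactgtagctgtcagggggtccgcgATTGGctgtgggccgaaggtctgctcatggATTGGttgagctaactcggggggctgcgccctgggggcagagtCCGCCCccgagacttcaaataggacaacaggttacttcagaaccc
Tjp1: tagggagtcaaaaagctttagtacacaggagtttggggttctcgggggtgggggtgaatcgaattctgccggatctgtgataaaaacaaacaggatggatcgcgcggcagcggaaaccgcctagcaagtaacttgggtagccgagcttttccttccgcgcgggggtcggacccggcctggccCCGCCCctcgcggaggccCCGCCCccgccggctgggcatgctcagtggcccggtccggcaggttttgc
The Cldn11 window held 2 CCAAT matches, both on the reverse strand, and no GGGCGG. Cldn5 held 2 CCAAT matches and 1 GGGCGG, and Tjp1 held 2 GGGCGG and lacked the other motif. Of all windows of this length, 32536 in number, 33.8% hold CCAAT and 33.0% hold GGGCGG, so a match is common, and CCAAT was added to the search after these sequences were seen. Of 2 further motifs, AACAAT (in 9.3% of windows, the core bound by SOX factors) and AGATAA (10.0%, a core bound by GATA factors), AGATAA was found once, in the window of Gja1, and AACAAT in none of the member windows searched. The window GC content was 63.6% for Cldn11, 59.6% for Cldn5 and 63.2% for Tjp1, where the median window had 52.4%. Windows were found for 7 of the 9 genes, and Jam2 and Cdh2 were not searched.

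From P4 to P7, WT testis rose in 6 of the 9 junction genes and fell in 1. Cldn11 rose 11.6-fold, and Jam2, Cdh2, Ocln, Tjp1 and F11r rose between 1.57-fold and 2.97-fold, while Cldn5 fell. Over all 18419 genes tested, 11.8% were called higher and 9.97% lower at P7 in WT. The samples labelled cKO shared the Cldn11 rise and the Cldn5 fall and also rose in Cldn3, so that 2 members were called higher, against 14.5% of all genes, and 1 lower, against 14.7%. Ocln, Tjp1, F11r, Jam2, Gja1 and Cdh2 did not pass the test between stages in the samples labelled cKO. The median log2 difference over the 9 members was 1.05 in WT, where that of all genes was -0.03, and -0.01 in the samples labelled cKO, where that of all genes was 0.

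**Figure D1:**
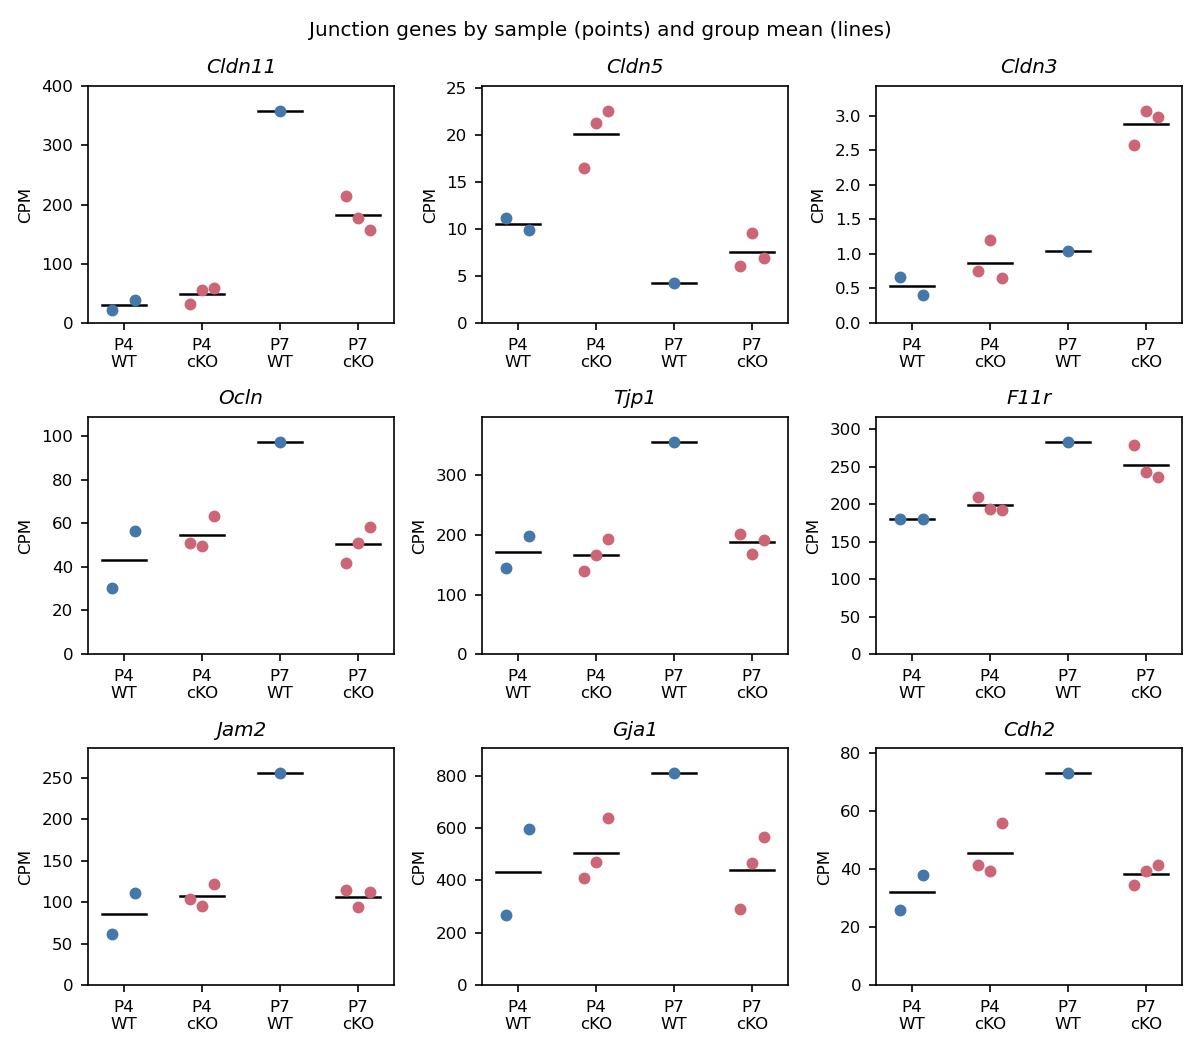
Level of each junction gene in CPM (linear axis from 0), 1 point per sample and a line at the group mean, for P4 WT (2 samples), P4 labelled cKO (3), P7 WT (1, the sum of 2 libraries) and P7 labelled cKO (3). Cldn11 stands at 22.6 to 58.6 CPM in all P4 samples and at 156.5 to 357.2 CPM in all P7 samples. The P7 WT point is the highest of the panel for Cldn11, Ocln, Tjp1, F11r, Jam2, Gja1 and Cdh2. The share of all genes with P7 WT highest was not counted.

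Between genotypes, 1 of the 9 genes was called at P4 and 3 at P7. Cldn5 was higher in the P4 samples labelled cKO, where 4.84% of all genes were called higher, and no member was lower, where 4.13% of all genes were. At P7, Jam2, Cdh2 and Tjp1 were lower in the samples labelled cKO, against 9.72% of all genes called lower, and no member was called higher, against 7.26%. The median log2 difference of the members was 0.33 at P4 (0 over all genes) and -0.92 at P7 (0.08 over all genes). The interaction, the P7 difference between genotypes minus the P4 difference, called no member and 0% of all genes in edgeR. At an unadjusted p under 0.05 it held 5 members, all with a value below 0 (Cldn11, Ocln, Tjp1, Jam2 and Cdh2), and DESeq2 called 4 and limma-voom 0. Ranked among all 18419 genes in the edgeR interaction, these 5 ran from 292 (Jam2) to 2473 (Tjp1), so many other genes met the unadjusted limit. The share of all genes that met it, or that DESeq2 called, is not given here, so these counts do not set the members apart. The P7 genotype comparison, the stage comparison in WT and the interaction share the P7 WT sample, so a high or low value there enters all 3.

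The P7 genotype calls depend on the fit. With offsets for transcript length and GC content, no member and only 2 genes of the whole table were called. A fit of the P7 samples alone called no gene of the whole table, so its lack of a called member is not particular to the members. The fit without P7 cKO library 2 also called no member. Without P7 cKO library 1, 7 members were called: Cldn3 and Cldn5 higher and Cldn11, Ocln, Tjp1, Jam2 and Cdh2 lower. For fits that leave out a library, the share of all genes called is not given singly here.

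**Figure D2:**
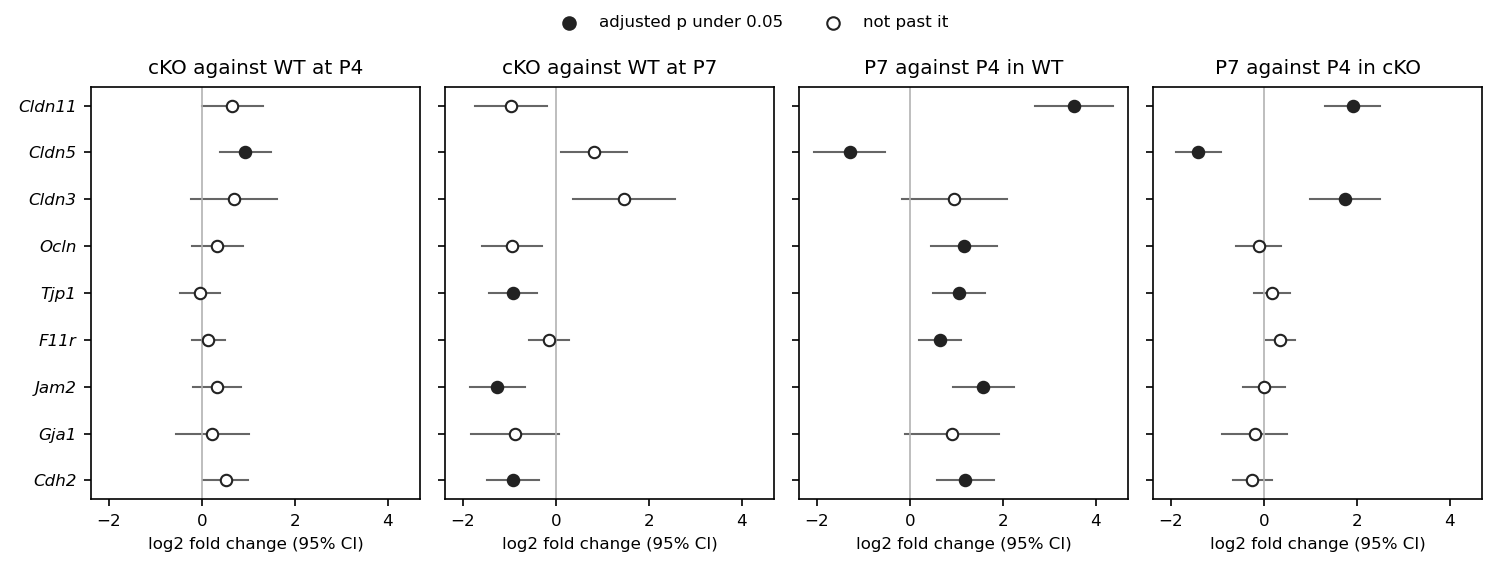
Log2 fold change of each junction gene (points) with its 95% confidence interval (lines) in the 4 pairwise comparisons, with filled points where the edgeR adjusted p is under 0.05. Cldn11 lies far to the right in WT at 3.53 and at 1.91 in the samples labelled cKO, and 3 members (Tjp1, Jam2, Cdh2) are filled to the left of 0 at P7.

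Among the claudins, Cldn11 (claudin 11, chr3:31149920-31164326, plus strand, GRCm38) had the largest change with stage. It was read at 22.6 and 39.2 CPM in P4 WT and at 357.2 CPM in P7 WT. In the samples labelled cKO it was read at 31.3, 56.0 and 58.6 CPM at P4 and at 214.4, 176.5 and 156.5 CPM at P7. All P7 samples thus lay above all P4 samples in both genotypes, and every P7 sample labelled cKO lay below P7 WT. The rise was 3.53 on the log2 scale in WT (SE 0.383, 95% interval 2.69 to 4.37, adjusted p = 5.15e-04) and 1.91 in the samples labelled cKO (SE 0.27, interval 1.31 to 2.50, adjusted p = 5.22e-04). Both rises stayed past the threshold in all 21 alternative fits, between 3.18 and 4.04 in WT and between 1.67 and 2.7 in the samples labelled cKO. The log2 difference of the rises was -1.62 (SE 0.461, adjusted p = 0.0865) and that of the genotypes at P7 was -0.97 (adjusted p = 0.0782), neither past the threshold.

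Cldn5 (claudin 5, chr16:18776847-18778262, plus strand) is best known as a claudin of blood vessel endothelium. It was read at 11.2 and 9.96 CPM in P4 WT and at 16.5, 21.3 and 22.5 CPM in the P4 samples labelled cKO, with no overlap. At P7, WT gave 4.30 CPM and the samples labelled cKO gave 6.11, 9.55 and 6.95 CPM. It fell with stage in WT (log2 -1.30, SE 0.349, adjusted p = 0.0237) and in the samples labelled cKO (log2 -1.42, SE 0.222, adjusted p = 8.83e-04). At P4 it was higher in the samples labelled cKO (log2 0.93, SE 0.25, adjusted p = 0.0429). That call was made in 12 of 21 alternative fits. It was lost when any single P4 library was left out, and also without P7 cKO library 3, which is outside the comparison. Leaving out P4 WT library 1 left almost no call at P4 over the whole table, so the loss there is not particular to Cldn5. In that fit the stage fall in WT was -1.22 and not called, where calls were fewer over the whole table too. With length and GC offsets the fall was -0.66, not called either (adjusted p = 0.204).

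Endothelial markers fell beside Cldn5 with stage. With stage, 7 of the 10 fell in WT, where 9.97% of all genes did, and 8 of 10 in the samples labelled cKO, where 14.7% did, for example Tie1 by -2.30 and -1.33 and Egfl7 by -1.47 and -1.06 on the log2 scale. At P4, where Cldn5 differed between genotypes, none of the 10 passed the test and their list median was 0.18 (0 over all genes). Their sum at P4 was 386.9 and 401.1 CPM in WT and 484.3 to 490.2 CPM in the samples labelled cKO. At P7, Tie1, Eng and Egfl7 of the 10 were higher in the samples labelled cKO, where 7.26% of all genes were. Of the 10, 6 had a P7 value above 0, and the list median was 0.01 (0.08 over all genes). Their sum at P7 was 204.4 CPM in WT and 196.7, 251.1 and 267.9 CPM in the samples labelled cKO. Of the other marker lists at P4, 4 of 18 Sertoli, 3 of 7 Leydig, 3 of 6 peritubular and 3 of 6 macrophage markers were higher and 3 of 10 germ cell markers lower in the samples labelled cKO, where 4.84% of all genes were higher and 4.13% lower. The part of these cell types in the Cldn5 values was not tested.

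Cldn3 (claudin 3, chr5:134986214-134987476, plus strand), a claudin linked to newly formed Sertoli cell junctions, was the rarest member. It had 20 and 14 reads in the P4 WT libraries, 26, 35 and 25 in the P4 libraries labelled cKO, 36 and 24 in the P7 WT libraries, and 85, 122 and 123 in the P7 libraries labelled cKO. As levels, these were 0.662 and 0.413 CPM in P4 WT, 0.659 to 1.2 CPM in P4 labelled cKO, 1.04 CPM in P7 WT and 2.58 to 3.07 CPM in P7 labelled cKO. The P7 samples labelled cKO stood above every other sample. The rise with stage was called in the samples labelled cKO (log2 1.73, SE 0.346, adjusted p = 0.00358) and not in WT (log2 0.96, SE 0.516, adjusted p = 0.198). The difference of the rises was 0.78 (SE 0.637, adjusted p = 0.458). With length and GC offsets the rise in WT was called too (log2 1.67, adjusted p = 0.0398) and the difference of the rises was 0.06. At P7 the log2 difference between genotypes was 1.47 (SE 0.505, adjusted p = 0.0667), and 0.23 with length and GC offsets. The 6 markers of duct epithelium, which is rich in claudins, summed to 59.4 and 63.7 CPM in P4 WT and 63.9 to 88.2 CPM in P4 labelled cKO. At P7 they summed to 56.8 CPM in WT and 65.0 to 86.8 CPM in the samples labelled cKO, and none passed between genotypes. Epcam alone gave 45.2 CPM in P7 WT. With stage in WT, Epcam rose by 1.47 on the log2 scale and Krt7, Krt19 and Krt8 fell (-3.70, -3.28 and -2.66), which the sum hides. Over all genes, 11.8% rose and 9.97% fell. Krt8 stood at 3.95 CPM in P7 WT and at 5.165, 19.35 and 20.25 CPM in P7 labelled cKO (log2 1.92, adjusted p = 0.0645). The part of duct epithelium in the Cldn3 values was not tested. The Cldn3 exons share bases with the antisense gene Wbscr25, and since the strand setting of the counting is not given in the sources used here, reads of the pair could not be told apart.

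The make-up of the 3 claudins turned over between the stages. Per kilobase of exon, Cldn11 gave 58.9% and 74.0% of their summed level in P4 WT and 57.7% to 65.6% in the P4 samples labelled cKO. At P7 it gave 98.0% in WT and 91.1% to 94.7% in the samples labelled cKO. The Cldn5 share went from 24.9% to 40.3% over the P4 samples to 1.56% in P7 WT and 3.57% to 6.52% in the P7 samples labelled cKO. Every P7 sample labelled cKO thus held a larger Cldn5 share and a smaller Cldn11 share than P7 WT, a description with no test.

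**Figure D3:**
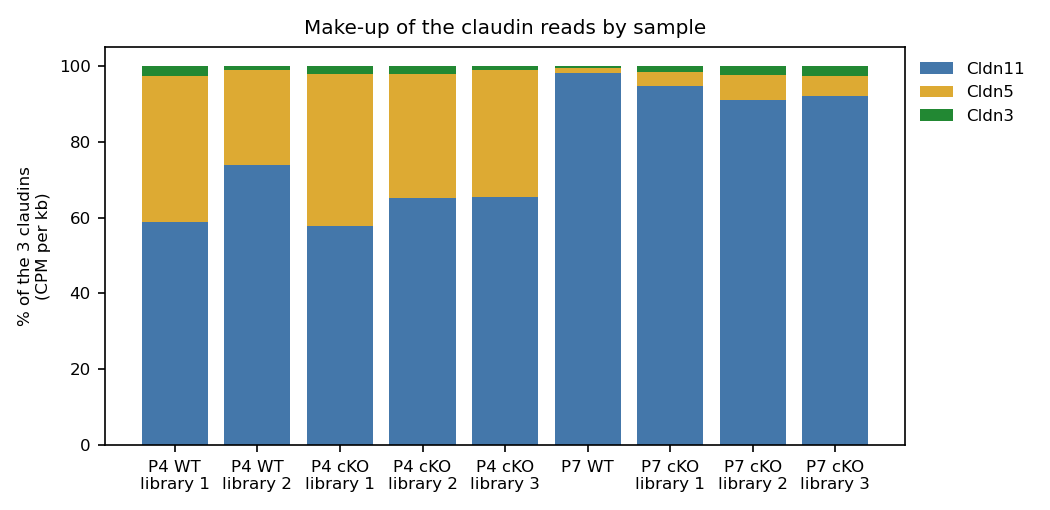
Share of each claudin, in percent, of the summed level of Cldn11, Cldn5 and Cldn3 per kilobase of exon in each of the 9 samples. Cldn11 takes 57.7% to 74.0% of the bar in the P4 samples and 91.1% to 98.0% in the P7 samples, with Cldn5 making up most of the rest.

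Ocln (occludin, chr13:100496505-100552718, minus strand), the tetraspan partner of the claudins, was read at 30.3 and 56.4 CPM in P4 WT and at 51.0, 49.4 and 63.4 CPM in the P4 samples labelled cKO. At P7, WT gave 97.2 CPM and the samples labelled cKO gave 42.0, 51.1 and 58.1 CPM. P7 WT was above every other sample, and the 6 samples labelled cKO overlapped between stages. The rise in WT was 1.16 in log2 units (SE 0.324, adjusted p = 0.0271), and 0.75 with length and GC offsets, not called (adjusted p = 0.0785). The P7 genotype difference of -0.95 (SE 0.301, adjusted p = 0.0509) fell just short of the threshold.

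Tjp1 (ZO-1, the scaffold under the tight junction, chr7:65296165-65371244, minus strand) was read at 144.2 and 199.1 CPM in P4 WT and at 140.3, 166.2 and 192.7 CPM in the P4 samples labelled cKO. At P7, WT gave 355.6 CPM and the samples labelled cKO gave 202.0, 168.9 and 192.1 CPM. Again the single P7 WT sample stood apart from all others. Tjp1 rose in WT (log2 1.05, SE 0.258, adjusted p = 0.0162) and was lower in the P7 samples labelled cKO (log2 -0.92, SE 0.239, adjusted p = 0.0255). With length and GC offsets neither was called, at 0.79 and -0.47. In the samples labelled cKO the difference between stages was 0.17, with a 95% interval of -0.21 to 0.56.

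Jam2 (JAM-B, an adhesion molecule of Sertoli and endothelial cells, chr16:84774123-84826375, plus strand) had the lowest p of the 9 genes in the P7 genotype comparison. It was read at 61.3 and 110.6 CPM in P4 WT, at 103.7, 95.8 and 121.5 CPM in P4 labelled cKO, at 255.5 CPM in P7 WT and at 114.5, 93.7 and 111.7 CPM in P7 labelled cKO. The P7 samples labelled cKO lay within the range of the P4 samples, while P7 WT was the highest of all. The log2 difference at P7 was -1.26 (SE 0.276, interval -1.86 to -0.66, adjusted p = 0.0145) and was called in 18 of 21 alternative fits. It was -0.60 with length and GC offsets, not called. The rise in WT, 1.57 (SE 0.30, adjusted p = 0.00563), was called in all 21. The interaction was -1.58 (SE 0.367, adjusted p = 0.0696).

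F11r (JAM-A, expressed by many epithelia and also on sperm, chr1:171437561-171464593, plus strand) had the narrowest range of the members, taken as the ratio of the highest to the lowest sample. It was read at 180.4 and 180.0 CPM in P4 WT, at 192.0 to 209.7 CPM in P4 labelled cKO, at 282.2 CPM in P7 WT and at 235.8 to 279.3 CPM in P7 labelled cKO. It rose with stage in WT (log2 0.65, SE 0.208, adjusted p = 0.0451), a call made in 8 of 21 alternative fits. In the samples labelled cKO the stage difference was 0.35 (SE 0.142, adjusted p = 0.0859), and the genotypes did not differ past the threshold at P4 (0.14, or -0.02 when scaled by library totals) or P7 (-0.16).

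Gja1 (connexin 43, the main gap junction protein of Sertoli cells, chr10:56377300-56390419, plus strand) passed the test in no comparison. It was read at 268.9 and 596.1 CPM in P4 WT and at 410.2, 470.0 and 638.3 CPM in the P4 samples labelled cKO. At P7, WT gave 809.6 CPM and the samples labelled cKO gave 291.0, 466.5 and 566.5 CPM. The ratio between the P4 WT samples was larger than for any other member, at 2.22, and the ratio of the highest to the lowest sample labelled cKO was 1.56 at P4 and 1.95 at P7. The stage difference in WT was 0.90 (interval -0.11 to 1.92) and the P7 genotype difference was -0.88 (interval -1.82 to 0.07).

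Cdh2 (N-cadherin, chr18:16588877-16809246, minus strand) was read at 26.0 and 38.0 CPM in P4 WT and at 41.4, 39.5 and 56.0 CPM in the P4 samples labelled cKO. At P7, WT gave 73.1 CPM and the samples labelled cKO gave 34.5, 39.3 and 41.4 CPM. The samples labelled cKO thus lay above both WT samples at P4 and below the WT sample at P7. Only the P7 difference was called (log2 -0.93, SE 0.259, adjusted p = 0.033), and it was -0.21 with length and GC offsets. The P4 difference was 0.51 (SE 0.219, adjusted p = 0.147) and the interaction -1.44 (SE 0.34, adjusted p = 0.0697). Cdh2 rose with stage in WT (log2 1.19, SE 0.279, adjusted p = 0.0133).

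P4 WT library 1 was the lower of its pair in Cldn11, Ocln, Tjp1, Jam2, Gja1, Cdh2 and the Sertoli marker sum. Leaving it out left 1 sample in P4 WT, and most members lost their stage call in WT. Calls were lost over the whole table too, so that loss is not particular to the members. Without that library, the direction at P4 also turned for Ocln, Jam2 and Gja1, to -0.05, -0.05 and -0.24.

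**Figure D4:**
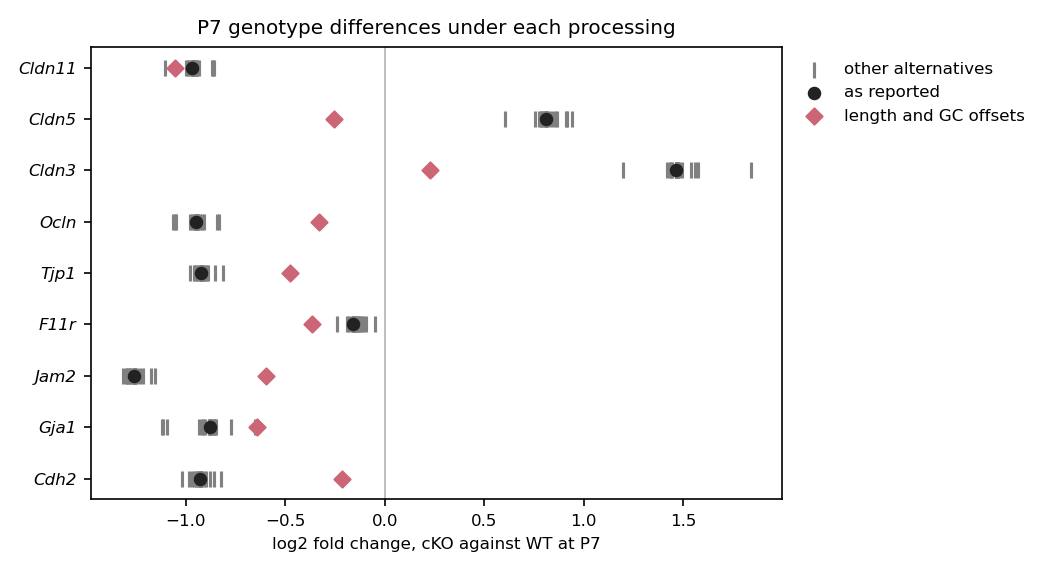
Log2 fold change of each junction gene, samples labelled cKO against WT at P7, as reported (circles), with length and GC offsets (diamonds) and under the other alternatives (ticks). The diamonds move toward 0 for Ocln, Tjp1, Jam2 and Cdh2, stay at -1.05 for Cldn11, and cross to -0.26 for Cldn5.

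The members span a wide range of GC content and length, which bears on those offsets. Cldn3 and Cldn5 stood at the 99th and 96th percentile of GC among tested genes and at the 15th and 18th of exonic length. Cdh2, Ocln and Jam2 stood at the 16th, 19th and 19th of GC and at the 80th, 73rd and 80th of length. The short, GC-rich members were the ones with P7 values above 0, and the long, GC-poor ones had values below 0. Values below 0 were also those of Cldn11, F11r, Tjp1 (38th percentile of GC, 93rd of length) and Gja1 (39th and 56th). The part of GC and length in the P7 values was not tested. With the offsets, the P7 values were 0.23 for Cldn3, -0.26 for Cldn5, -0.33 for Ocln and -0.47 for Tjp1, while those of Cldn11 (51st percentile of GC, 29th of length) and F11r (64th and 43rd) were -1.05 and -0.37.

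Levels of different genes were compared per kilobase of exon (CPM per kb). Gja1 was the highest member in every group, at 139.3 in P4 WT (86.6 and 192.0), 163.0 in P4 labelled cKO, 260.7 in P7 WT and 142.1 in P7 labelled cKO. F11r came next in 3 groups and Cldn3 last in all 4. Cldn11 stood at 16.5 in P4 WT, below Jam2 and Tjp1 with ranges that overlapped, and at 190.8 in P7 WT, next below Gja1. In P7 labelled cKO it averaged 97.5, its range of 83.6 to 114.5 overlapping those of F11r and Gja1. Jam2 at 53.1 and Tjp1 at 49.98 were neighbours in P7 WT, where 1 sample gives no spread.

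The members were also set against the summed Sertoli cell markers, a ratio chosen after values were seen. Cldn11 came to 0.464% and 0.598% of that sum in P4 WT, 0.381% to 0.730% in P4 labelled cKO, 4.43% in P7 WT and 2.11% to 3.08% in P7 labelled cKO. Jam2 came to 3.17% in P7 WT and 1.29% to 1.65% in P7 labelled cKO, and Tjp1 to 4.41% and 2.32% to 2.90%. P7 WT thus stayed above the P7 samples labelled cKO in these 3 ratios. It was below them for Cldn5 (0.0533%, against 0.0878% to 0.131%) and Cldn3 (0.0129%, against 0.0371% to 0.0421%), and within their range for F11r (3.50%, against 3.18% to 4.01%). At P4 the marker sum differed between the genotypes in the other direction, and Tjp1 came to 2.96% and 3.04% in WT and 1.70% to 2.25% in the samples labelled cKO. Sertoli markers themselves did not move as one. At P7, 2 of the 18 (Amh and Krt18) were higher and 2 (Kitl and Sox9) lower in the samples labelled cKO. Over all genes, 7.26% were higher and 9.72% lower, and the list median was -0.23 (0.08 over all genes). The Amh value turned to -0.24 with length and GC offsets. Krt18 was read at 2.53 CPM in P7 WT and at 4.53, 17.6 and 18.5 CPM in P7 labelled cKO.

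**Figure D5:**
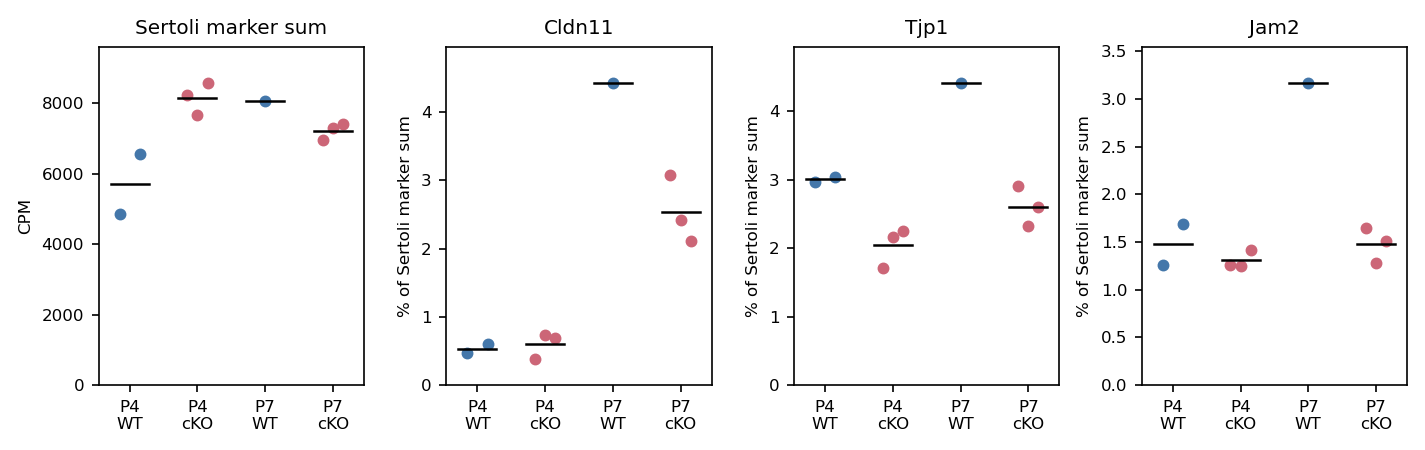
Summed level of 18 Sertoli cell markers (CPM) and the levels of Cldn11, Tjp1 and Jam2 as percent of that sum, 1 point per sample and a line at the group mean, by group. P7 WT is the highest point in each ratio panel, at 4.43% for Cldn11, 4.41% for Tjp1 and 3.17% for Jam2.

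Other junction genes were read from 3 lists. Of 26 other tight junction genes, 7 rose and 3 fell with stage in WT, where 11.8% of all genes rose and 9.97% fell, with Cxadr (an adhesion molecule related to JAM) at 1.81, Cldn12 at 1.61 and Jam3 at 1.19 on the log2 scale. At P7, 5 were lower and none higher in the samples labelled cKO: Prkci (the polarity kinase aPKC) at -1.16, Mpp5 (the polarity protein PALS1) at -1.06, Cldn12 at -0.99, Jam3 at -0.78 and Cxadr at -1.28. Those 5 of 26 stand beside the 9.72% of all genes called lower, and the list median was -0.12 (0.08 over all genes). With length and GC offsets Mpp5 stood at 0.01. With stage in the samples labelled cKO, 4 rose and 5 fell (14.5% and 14.7% of all genes), and the lowest p in each direction belonged to Cgn (cingulin) at 1.28 and Pard3 (a polarity protein) at -1.60. At P4 only Mpdz differed, at -0.64.

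Of 25 other adherens and anchoring junction genes, 6 were lower and none higher in the P7 samples labelled cKO, where 9.72% and 7.26% of all genes were, and the list median was -0.42 (0.08 over all genes). They included Vcl (vinculin, which couples adhesion sites to actin) at -1.33, Nectin3 at -1.12, Itga6 at -0.99 and the desmosomal cadherin Dsc2 at -1.28. With stage in WT, 4 rose and 3 fell (11.8% and 9.97% of all genes): Vcl stood at 1.62, Itga6 at 1.03, Dsc2 at 1.33 and Nectin3 at 0.93, and Nectin1, Pkp4 and Cdh3 were lower. In the samples labelled cKO, 1 rose with stage (Espn, an actin bundler, at 0.55) and 7 fell, among them Dsp at -2.34 and Dsg2 at -1.92, where 14.5% of all genes rose and 14.7% fell. At P4, Nectin2 was higher at 0.96 and Pkp2 lower at -1.07. Among 14 other gap junction genes, 12 were tested, and none passed between genotypes at either stage. With stage, Gja3 rose in WT (2.31), and Gja3, Gjd3 and Gjb1 rose in the samples labelled cKO (3.66, 1.07 and 1.88).

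Among 15 regulators of Sertoli cell junctions, 2 were higher at P4 and 3 lower at P7 in the samples labelled cKO, where 4.84% and 9.72% of all genes were. Sox9 (the Sertoli cell fate factor, also on the Sertoli marker list) was higher at P4 by 1.06 and lower at P7 at -0.82 in the samples labelled cKO, and it rose with stage in WT by 2.08. Eps8, an actin regulator of the barrier, was lower at P7, at -0.86. Tgfb3, a cytokine that acts on the barrier, was higher at P4 by 0.62. The transcription factors Gata1 and Dmrt1 rose with stage in WT (3.26 and 1.00) and in the samples labelled cKO (1.97 and 1.09), where Tgfb2, Gata4 and Eps8 fell. In the interaction none of the genes on these lists passed the test.

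The genes whose log2 CPM followed each member most closely over the 9 samples were drawn from 13365 genes with a mean log2 CPM of at least 1. Sertad4 was near to Cldn11 (Pearson r = 0.989), C130074G19Rik and Tspan18 were nearest to Cldn5 (0.991 and 0.990), and Fam53a and Ccdc106 to Cldn3 (0.978 and 0.977). Styx and Lypla1 were nearest to Ocln (0.986 and 0.983), Lrrc40 and Flrt2 to Tjp1 (0.990 and 0.986), Nr2c1 and Mospd2 to Jam2 (0.972 and 0.970), and Sh3bgr and Ppcs to F11r (0.988 and 0.978). Nxt2 and Ube2q2 were nearest to Gja1 (0.997 and 0.976), and Epm2aip1 and Ubqln1 to Cdh2 (0.991 and 0.989). None of these partners is a member, and the values describe likeness over samples that share stage, genotype and depth.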

How the data were processed

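Total RNA of mouse testis was sequenced as TruSeq libraries, per the labels' protocols. The authors deposited raw read counts per gene with exon coordinates and lengths. The submitters' processing notes list STAR 2.7.11a, Trim Galore 0.6.10, featureCounts (Subread 2.0.6), SAMtools 1.6, FastQC 0.12.1 and MultiQC 1.14, and the build GRCm38 (mm10). Whether counting used strand or multiply mapped reads is not given in the sources used here. Even numbers made up 67.8% to 80.0% of counts under 50, so both mates of a pair may be counted.

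Libraries were grouped by title. The plan was to sum 2 libraries of a group that differed by no more than sampling noise. An earlier account of these data had reported this for P7 WT, and the plan gave no number for the limit. Summing the P7 WT libraries left 9 samples and 5 residual degrees of freedom. After the filterByExpr filter (18419 genes kept), counts were scaled by TMM and tested with the two-sided quasi-likelihood F test of edgeR 4.0.16 in R 4.3.3, adjusted by Benjamini-Hochberg over all genes tested (threshold 0.05). The standard error (SE) of a log2 fold change is its size over the root of its F statistic, and intervals are 95%. CPM values are counts per 1 M reads, TMM-scaled. The scripts were tested on simulated data.

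Alternatives were 10 separate libraries, RLE factors, library totals, no filter, a minimum count of 50, DESeq2 1.42.0, limma-voom (limma 3.58.1), the compared groups alone, the replicate number as a block, length and GC offsets (GC known for 98.9% of tested genes) and leaving out each library. Members and lists were chosen with earlier results of these data known. Named genes were the 9 members, up to 4 genes of lowest p per list, comparison and direction, and the 2 genes most like each member. Some genes that met this rule are not reported here. Cxadr at P7 was added after its value was seen. Promoter sequences are from RefSeq, and GC content from GENCODE transcripts.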

Additional observations from a re-analysis of the deposited data

How the results depend on the processing

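Of the 7 stage calls in WT, most were lost without P4 WT library 1. That fit holds 1 sample in P4 WT and made fewer calls over the whole table too. Members called at P4 were 0 with library totals, with the replicate block within stage and with length and GC offsets, and 0 to 1 when a library was left out. At P7 they were 7 with 10 separate libraries, 6 with DESeq2, 5 with limma-voom, 0 with the compared groups alone, 0 with length and GC offsets and 0 to 7 when a library was left out. With the replicate number as a block they were 8 (also within stage). In the interaction they were 5 with 10 separate libraries, 2 with no filter, 4 with DESeq2, 6 with the replicate block, 3 with the block within stage and 0 to 4 when a library was left out. Over the whole table, the replicate block called 7438 genes at P7 and 4311 in the interaction, where 3129 and 0 were called as reported. Whole-table counts are not given here for 10 separate libraries, no filter, DESeq2, limma-voom or the block within stage. These member counts thus do not set the members apart. The causes were not tested. The labels do not say that a number pairs libraries. The deviations of same-numbered libraries correlated at 0.15 and -0.09 at P4, where a pair of WT libraries mirrors itself, and at P7 the WT pair counts as 1 sample, so these values do not settle whether the numbers pair.

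Some directions turned, of which Amh, Dazl and Mpp5 at P7 were called as reported. At P4, Tjp1 was 0.06 with the offsets and F11r -0.019 with library totals. When a library was left out, Ocln ran from -0.048 to 0.85, Tjp1 from -0.26 to 0.21, Jam2 from -0.049 to 0.80 and Gja1 from -0.24 to 0.91. At P7 with the offsets, Cldn5 was -0.26, Amh -0.24, Dazl 0.042 and Mpp5 0.008. With stage in the samples labelled cKO, Ocln was 0.067 with library totals and 0.019 with the block within stage. Jam2 was 0.014 with RLE factors or DESeq2, 0.012 with a stricter filter, 0.18 with library totals, 0.032 with the groups alone, 0.003 with the replicate block, 0.28 with it within stage and 0.084 with the offsets. Leaving out a library gave -0.23 to 0.003 for Ocln, -0.081 to 0.096 for Jam2 and -0.42 to 0.029 for Gja1. The Cldn5 interaction was 0.15 with library totals, 0.03 with the block within stage and -0.33 to 0.01 when a library was left out.

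Over all genes, calls ran from 2 to 4157 at P4 (1651 as reported), from 0 to 7438 at P7 (3129), from 1187 to 7812 with stage in WT (4016), from 2707 to 6714 with stage in the samples labelled cKO (5372) and from 0 to 4311 in the interaction (0). Library totals moved the median gene from 0 to -0.16 at P4, from 0.08 to 0.19 at P7 and from 0 to 0.18 with stage in the samples labelled cKO. The higher share of calls then went from 54% to 25.5%, from 42.8% to 55.4% and from 49.6% to 68.2%. With 1 independent WT sample at P7, its own spread is not known.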
